A study of Mus musculus with 14 samples.

Results

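Chemokines and their receptors were followed through 5 lines of mouse KMF ovarian tumor cells. The members were the protein-coding genes of the deposited expression table whose symbol begins with Ccl, Cxcl, Cx3cl, Ccr or Cxcr and ends in a number, with or without 1 further letter. This gave 52 of 35275 genes, 36 ligands and 16 receptors, and left out 1 matching gene, Cxcl11, which the table lists as a polymorphic pseudogene.

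The KMF line came from the ovarian epithelial line ID8 by growth in C57Bl/6 mice and carries gains of several genes, among them Myc and Ptk2, the gene of focal adhesion kinase (FAK). FAK KO cells are the single CRISPR clone KT13 made from KMF, and all the other lines but KMF were built on that clone. FAK-WT and FAK-R454 cells are KT13 with lentiviral GFP-tagged FAK, either wild type or carrying the kinase-inactivating R454 change, and β-catenin ΔGSK cells are KT13 with retroviral β-catenin that lacks its GSK3β phosphorylation sites. All 5 lines were grown for 5 days as tumorspheres in serum-free medium. FAK-R454 cells gave 2 samples and every other line 3, which makes 14, and the third FAK-R454 sample that the methods describe was not analysed here. The FAK KO line is 1 clone, so the comparison with KMF cannot tell the loss of FAK apart from other differences of that clone. The labels number the samples as replicates and name no separate cultures. The methods describe RNA samples of KMF cells as independent and from various passages, but those of the KT13 lines only as replicates. So p-values measure the spread between these samples, which may be technical, at least within the KT13 lines. Ptk2 mRNA was still present in FAK KO cells, at 17.6 to 20.5 FPKM, beside 23.9 to 24.8 for KMF, 42.3 to 45.4 for FAK-WT, 59.2 to 65.5 for FAK-R454 and 15.1 to 15.9 for β-catenin ΔGSK, so its level does not check the knockout label at the protein. Ctnnb1, the β-catenin gene, was 207 to 223 FPKM for β-catenin ΔGSK, 195 to 207 for KMF, 139.5 to 148.5 for FAK KO, 127 to 129.6 for FAK-WT and 133 to 139 for FAK-R454, so its level does not set β-catenin ΔGSK far from KMF, which lacks the construct.

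Chemokines are small secreted proteins that guide the migration of leukocytes, and some also act on tumor cells, through G protein-coupled receptors on the responding cell. CXC ligands with an ELR motif, such as Cxcl1 and Cxcl5, bind Cxcr2 and draw neutrophils. CC ligands of the MCP group, such as Ccl2 and Ccl7, draw monocytes, Cxcl12 acts through Cxcr4, and Ccr7 and Ccr10 respond to ligands of lymph node and of skin and mucosa.

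Expression was deposited as FPKM, fragments scaled to gene length and to library size, and a gene was taken as expressed in a line when its mean was above 1 FPKM. By this measure 14 members were expressed in at least 1 line, 11 ligands and 3 receptors, and 9 of these were expressed in all 5 lines. FAK-WT and FAK-R454 cells each expressed 14 members, KMF and FAK KO cells 12 each, and β-catenin ΔGSK cells 9. That is 17.3% to 26.9% of the 52 members in a line, while 48.5% to 49.4% of all protein-coding genes were above 1 FPKM. Ligands made up nearly all of the signal. Their summed level was 171 ± 11.4 FPKM for KMF, 178 ± 7.01 for FAK KO, 183 ± 20.3 for FAK-WT and 66.4 ± 4.04 for β-catenin ΔGSK (SD, n = 3 each), and 170.5 ± 8.14 for FAK-R454 (SD, n = 2). The summed receptor level was 4.58 ± 0.706 FPKM for KMF, 8.42 ± 1.01 for FAK KO, 14.0 ± 0.629 for FAK-WT and 3.44 ± 0.671 for β-catenin ΔGSK (SD, n = 3 each), and 12.0 ± 0.882 for FAK-R454 (SD, n = 2). The β-catenin ΔGSK samples were the lowest for ligands, with no overlap with any other line. Cxcl1 was the leading ligand in 4 lines, with 24.1% of the summed ligand FPKM for KMF, 31.8% for FAK KO, 33.4% for FAK-WT and 31.1% for FAK-R454. In β-catenin ΔGSK cells its share was 13.2% and Ccl27a led with 26.1%. Because these are bulk samples, fewer cells that express a gene and less of its RNA per cell cannot be told apart.

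**Figure D1:**
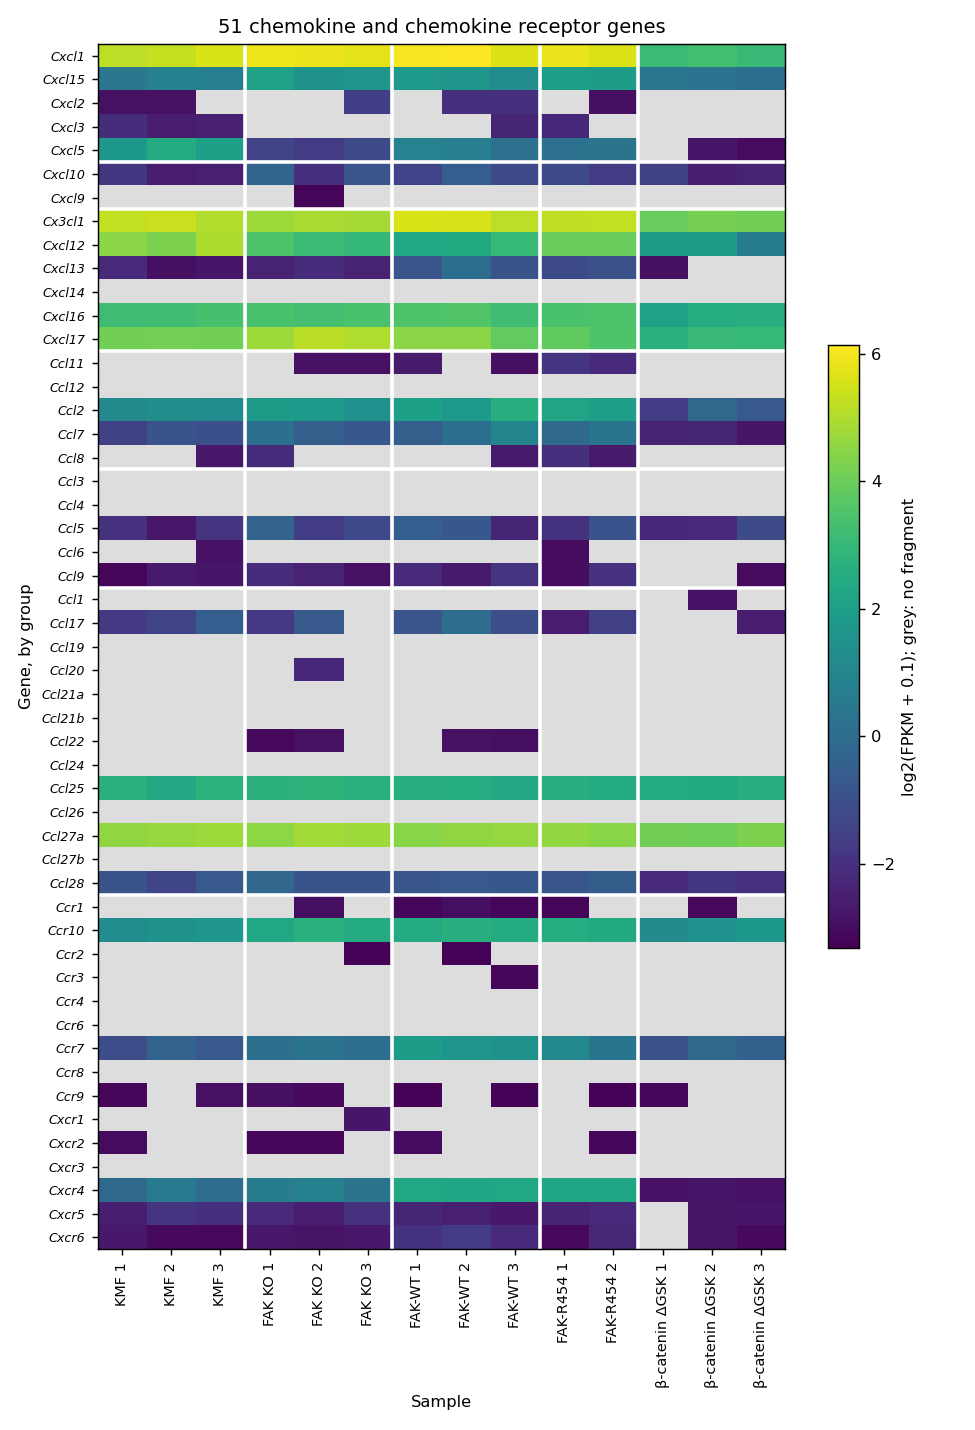
Level of 51 of the 52 chemokine and receptor genes (rows, grouped by role) in each of the 14 samples (columns, grouped by line), as log2(FPKM + 0.1) by color, with grey for no fragment. Cxcl1, Cx3cl1, Cxcl12, Cxcl16, Cxcl17, Ccl25 and Ccl27a were bright in every line or nearly so, and most receptors and most CC ligands were grey or dark.

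The other 38 members were never above 1 FPKM. FPKM times gene length, divided by what 1 fragment is worth in each library, returned whole fragments, so that the evidence behind each low value could be counted in libraries of 25390558 to 35289859 fragments. No fragment was counted in any sample for 14 members, the ligands Ccl3, Ccl4, Ccl12, Ccl19, Ccl21a, Ccl21b, Ccl24, Ccl26, Ccl27b and Cxcl14 and the receptors Ccr4, Ccr6, Ccr8 and Cxcr3. A count of 0 allows up to 3 fragments over a line, which corresponds to 0.0117 to 0.179 FPKM depending on gene and line (counting error only). A further 24 members, 15 ligands and 9 receptors, had fragments but stayed below the threshold, and 11 of them had fewer than 10 fragments over all 14 samples. Nearest below the threshold were Cxcl13, a B cell attractant, with a mean of 0.615 FPKM in FAK-WT cells, Ccl17 with 0.591 in the same cells, and Ccl28 with 0.555 in FAK KO cells. Nearest above it were Ccl7 in FAK-R454 cells with 1.02 FPKM, Ccr7 in FAK KO cells with 1.05 and Cxcr4 in KMF cells with 1.06.

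**Figure D2:**
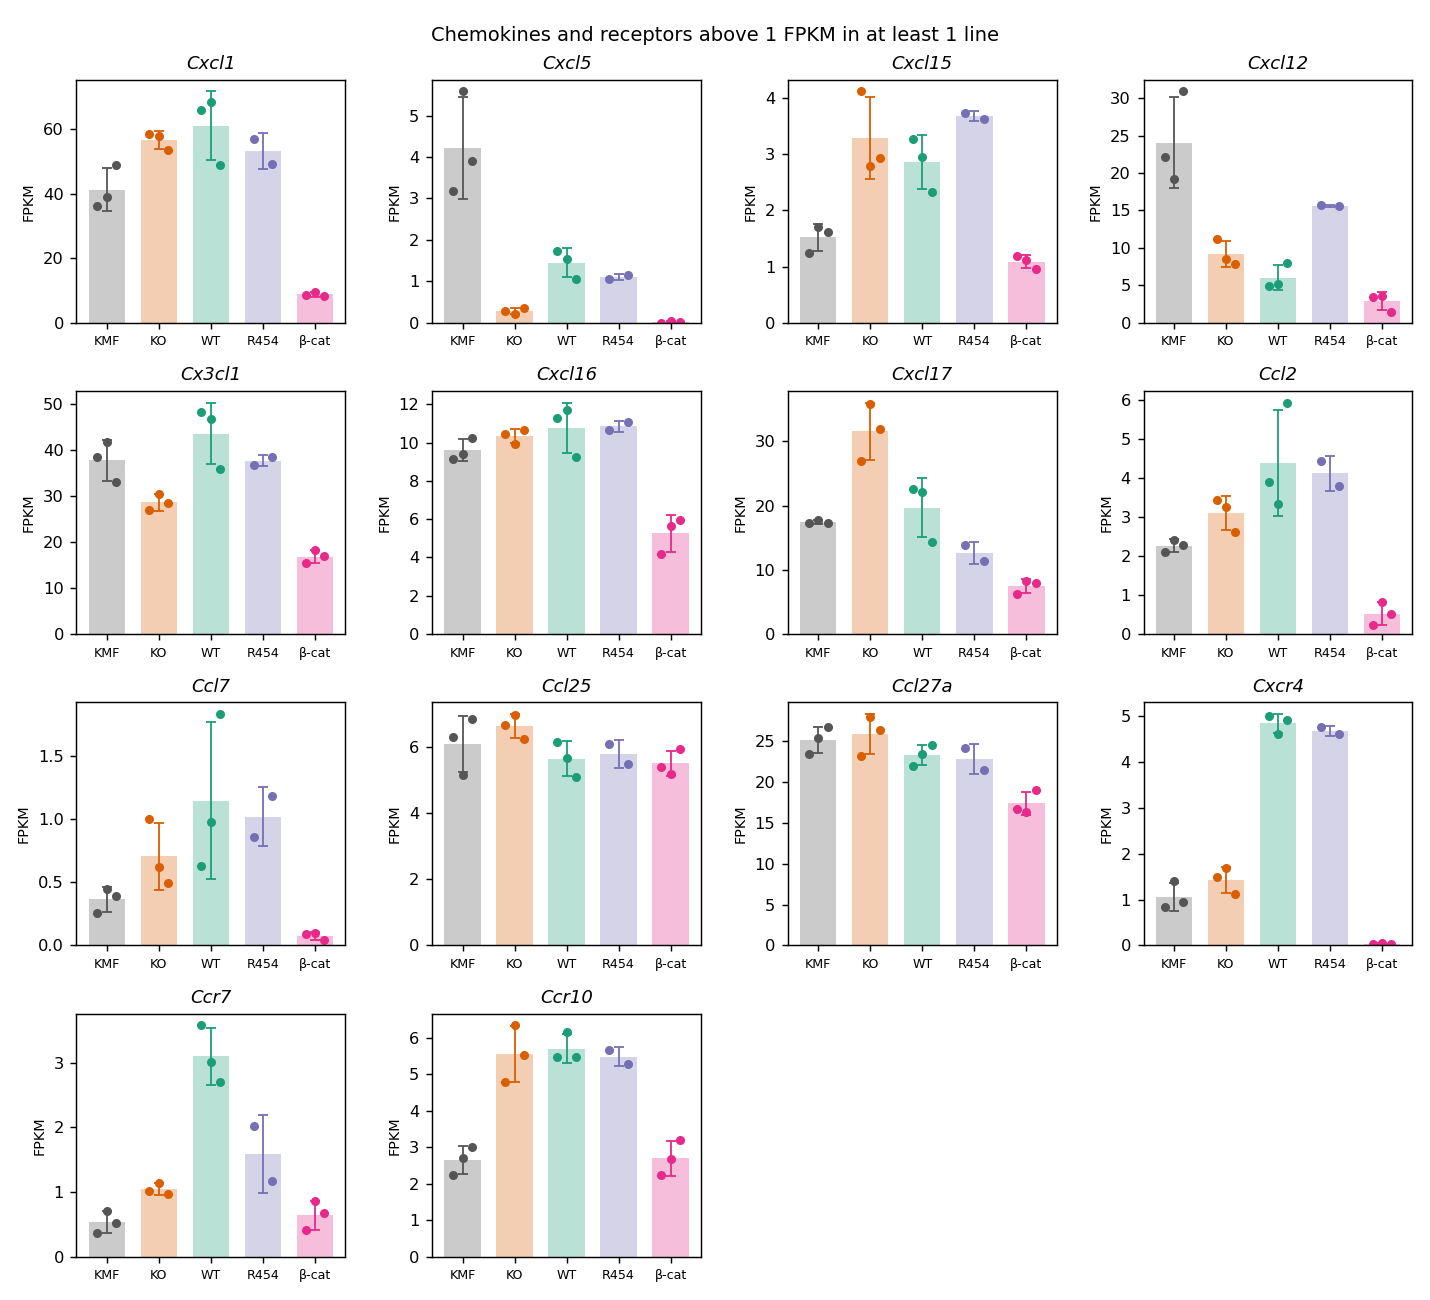
FPKM (vertical axes, from 0, each panel on its own scale) of the 14 members above 1 FPKM in at least 1 line, for KMF, FAK KO (KO), FAK-WT (WT), FAK-R454 (R454) and β-catenin ΔGSK (β-cat) cells. Points are samples, bars means and whiskers SD. The β-catenin ΔGSK bar is the lowest in every panel but those of Ccr7 and Ccr10, where KMF is the lowest, and by little in that of Ccl25. Cxcr4 is high only in FAK-WT and FAK-R454 cells.

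Lines were compared on the log2(FPKM + 0.1) scale with limma over all genes above 1 FPKM in at least 1 of the lines compared. A call of higher or lower needed an adjusted p (Benjamini-Hochberg over all genes tested) under 0.05, a change of at least 1 on the log2 scale in either direction, and a mean above 1 FPKM in the higher line. Between β-catenin ΔGSK and FAK KO cells 12 members were tested. None was called higher and 7 were called lower, against 5.13% of all 11915 genes called higher and 6.99% called lower, and limma gave 0 higher and 12 lower at an unadjusted p under 0.05. For every unadjusted count given here, the share of all genes at that threshold is not given. Such counts therefore cannot be set beside a background. Of the 12 members tested, Ccl2, Ccr7 and Cxcr4 passed the filter only through FAK KO cells, so they could only be lower. The other 9 were above 1 FPKM in both lines, and 5 of them were called lower, with a median log2 fold change of -1.02 beside -0.08 for all 10977 genes above 1 FPKM in both. In FAK-WT against FAK KO cells 3 of 14 members were called higher and none lower, with 2.91% of all genes called higher and 1.71% lower. At an unadjusted p under 0.05 limma gave 4 higher and 3 lower there. Cxcl5 and Ccl7 passed the filter only through FAK-WT cells, so they could only be higher, and of the 12 members above 1 FPKM in both lines 2 were called higher. In FAK-R454 against FAK KO cells 2 of 14 were called higher and 1 lower, with 1.93% and 0.812% of all genes. Cxcl5 and Ccl7 were again tested only through the re-expressing line, and of the 12 above 1 FPKM in both 1 was called each way. In KMF against FAK KO cells 2 of 13 were called higher and 2 lower, with 3.97% and 4.04% of all genes. Here Cxcl5 passed only through KMF and Ccr7 only through FAK KO, and of the 11 above 1 FPKM in both 1 was called higher and 2 lower. In FAK-WT against KMF cells 4 of 14 were called higher and 2 lower, with 3.82% and 2.11% of all genes. Ccl7 and Ccr7 passed only through FAK-WT and could only be higher, and of the 12 above 1 FPKM in both 2 were called each way. Directly between FAK-WT and FAK-R454 cells 1 of 14 was called lower and none higher, with 0.747% and 0.696% of all genes, and 2 each way at an unadjusted p under 0.05. Limma-voom on fragment counts also called no member in these 3 empty directions. The first 4 of these comparisons share the 3 FAK KO samples, so their values are not independent of each other.

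**Figure D3:**
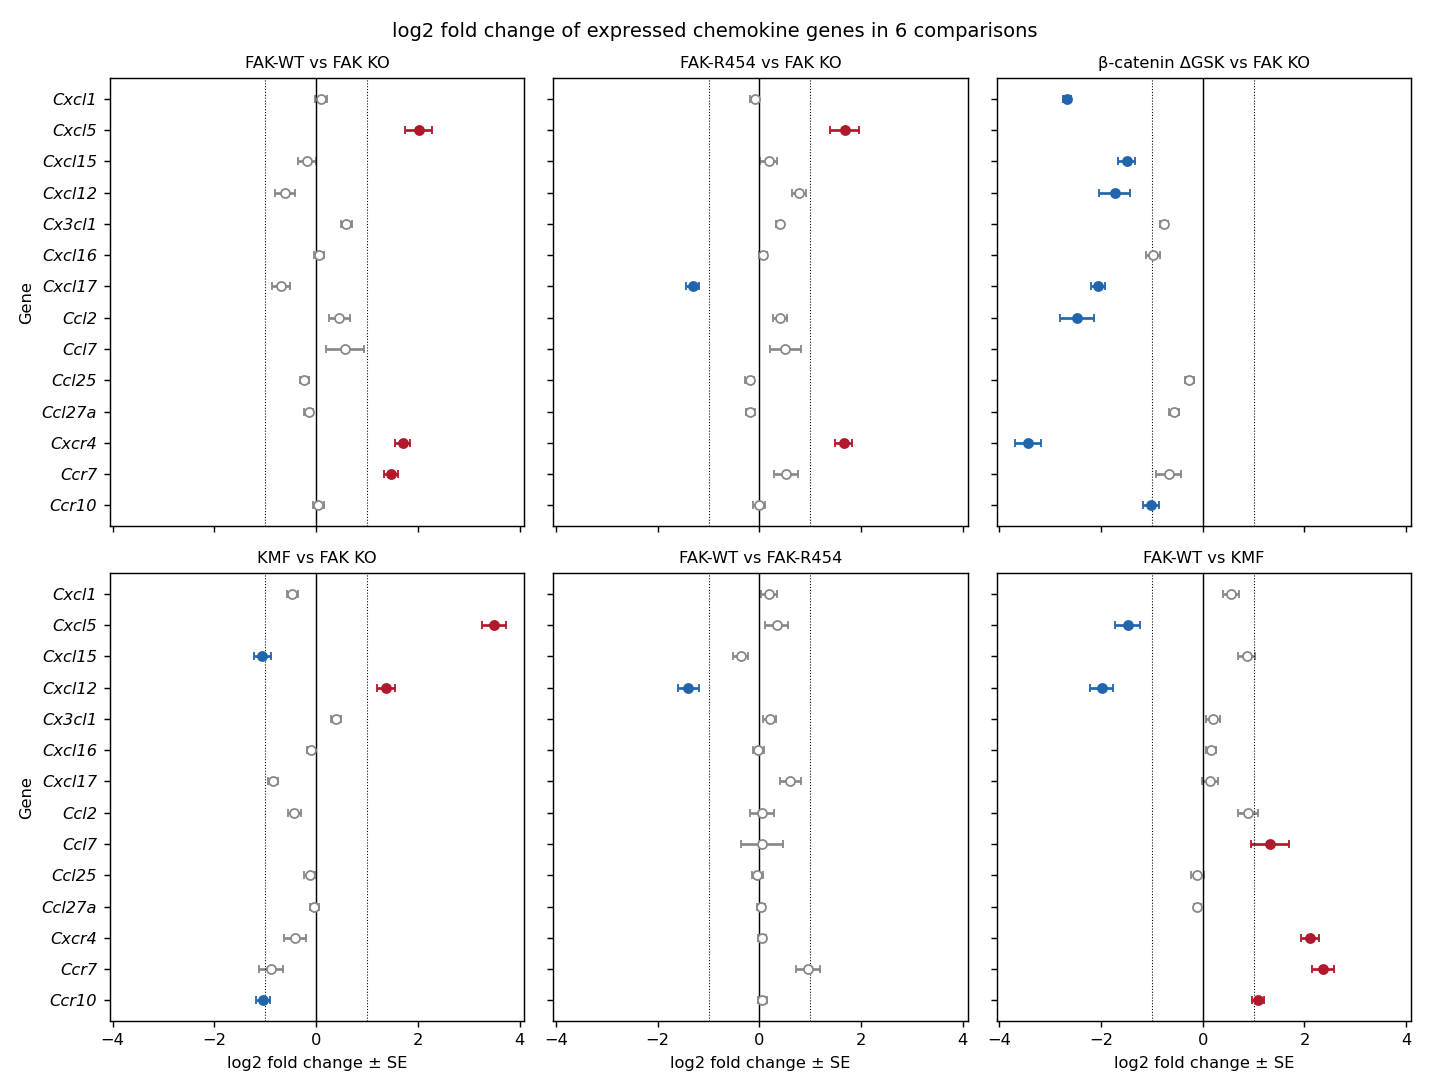
log2 fold change on the log2(FPKM + 0.1) scale (horizontal axes, whiskers SE from limma) of the 14 expressed members in 6 comparisons. Filled red and blue points were called higher and lower, open points were not called, a missing point was not tested, and dotted lines mark a log2 fold change of 1 in size. In β-catenin ΔGSK against FAK KO cells Ccl2, Ccr7 and Cxcr4 were tested only because FAK KO was above 1 FPKM, and Cxcl1 lies farthest left of the other 9 (log2 fold change -2.68).

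Promoter sequences from RefSeq (GRCm38.p6) were on hand for 7 of the 14 expressed members, Cxcl1, Cxcl12, Cxcl15, Cx3cl1, Ccl25, Ccl27a and Cxcr4. Those of Cxcl5, Cxcl16, Cxcl17, Ccl2, Ccl7, Ccr7 and Ccr10 are not shown. The 4 below belong to members that were all called lower in β-catenin ΔGSK cells, and are the 250 bases before the transcription start, 5′ to 3′ on the gene's strand. They lie at chr5:90890995-90891244 (plus strand), chr5:90794284-90794533 (plus strand), chr6:117168285-117168534 (plus strand) and chr1:128592300-128592549 (minus strand), in that order. Capitals mark every match, on either strand, to a kB-like motif (GGGA, any 4 bases, CC), an AP-1-like motif (TGANTCA) or a TCF/LEF-like motif (CTTTGA).
Cxcl1: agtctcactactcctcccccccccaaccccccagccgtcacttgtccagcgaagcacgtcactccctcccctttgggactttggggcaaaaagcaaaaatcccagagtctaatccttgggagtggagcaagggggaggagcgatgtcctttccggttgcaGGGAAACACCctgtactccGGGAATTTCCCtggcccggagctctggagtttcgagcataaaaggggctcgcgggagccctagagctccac
Cxcl15: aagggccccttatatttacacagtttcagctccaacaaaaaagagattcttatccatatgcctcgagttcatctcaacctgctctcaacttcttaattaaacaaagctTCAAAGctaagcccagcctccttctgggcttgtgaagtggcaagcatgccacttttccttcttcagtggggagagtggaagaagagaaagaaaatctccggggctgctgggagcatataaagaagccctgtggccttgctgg
Cxcl12: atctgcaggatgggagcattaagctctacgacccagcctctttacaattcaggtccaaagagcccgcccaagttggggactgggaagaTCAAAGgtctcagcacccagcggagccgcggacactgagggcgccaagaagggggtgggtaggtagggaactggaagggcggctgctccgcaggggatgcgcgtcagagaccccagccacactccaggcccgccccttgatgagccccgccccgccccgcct
Cxcr4: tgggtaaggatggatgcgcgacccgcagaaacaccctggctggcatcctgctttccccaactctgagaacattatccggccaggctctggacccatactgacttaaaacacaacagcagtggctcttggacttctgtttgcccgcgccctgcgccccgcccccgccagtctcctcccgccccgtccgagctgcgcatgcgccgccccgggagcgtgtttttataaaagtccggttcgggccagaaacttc
In the Cxcl1 promoter the kB-like letters matched 3 times, as GGGAAACACC beginning 90 bases before the start and as the overlapping pair GGGAATTTCC and GGAATTTCCC beginning 71 and 70 bases before it. The Cxcl15 and Cxcl12 promoters each held 1 TCF/LEF-like match, read as its reverse complement TCAAAG and beginning 142 and 162 bases before the start, and the Cxcr4 window held none of the 3 motifs. Of the members not called in that line, Ccl25 held 1 TCF/LEF-like match in 1 of its 2 windows, each of the 3 windows of Ccl27a held 1 kB-like match and 1 of them also 1 AP-1-like, and Cx3cl1 held none. A pair of the Ccl27a windows overlap and share their match. Among all 32851 RefSeq promoter windows of 300 bases, 20.7% held the kB-like letters, 7.81% the AP-1-like and 16.0% the TCF/LEF-like, so each match is common and is given as a description of the letters only.

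Among the ELR or neutrophil-attracting CXC ligands, Cxcl1, Cxcl15 and Cxcl5 were expressed and Cxcl2 and Cxcl3 were not. Their genes lie within 147 kb on chromosome 5 (90759299 to 90905909), in the order Cxcl5, Cxcl3, Cxcl15, Cxcl1, Cxcl2. Cxcl1 (ENSMUSG00000029380, 90891241 to 90893115) was 36.0, 38.8 and 48.7 FPKM for KMF, 58.6, 57.8 and 53.4 for FAK KO, 65.8, 68.4 and 48.9 for FAK-WT, 57.0 and 49.2 for FAK-R454 and 8.50, 9.63 and 8.24 for β-catenin ΔGSK. The β-catenin ΔGSK samples were far below all the others, and the re-expressed FAK lines overlapped FAK KO. The level in β-catenin ΔGSK cells was 6.39-fold lower than in FAK KO cells (log2 fold change -2.67, standard error 0.08, adjusted p = 4.36e-08). KMF cells were also lower than FAK KO cells, by less than the fold threshold (log2 fold change -0.47, adjusted p = 0.0068). Against FAK KO the log2 fold change was 0.09 in FAK-WT (95% interval -0.18 to 0.37) and -0.09 in FAK-R454 cells (95% interval -0.28 to 0.09).

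Cxcl5 (ENSMUSG00000029371, chromosome 5, 90759299 to 90761625) separated the lines in another order. It was 3.18, 5.58 and 3.90 FPKM for KMF, 0.281, 0.209 and 0.345 for FAK KO, 1.74, 1.53 and 1.06 for FAK-WT, 1.04 and 1.14 for FAK-R454 and 0, 0.0476 and 0.0205 for β-catenin ΔGSK. KMF was above every other line, FAK KO was below FAK-WT and FAK-R454, and FAK-WT and FAK-R454 overlapped. Against FAK KO, Cxcl5 was tested only because KMF, FAK-WT or FAK-R454 was above 1 FPKM, so it could only be higher. The added 0.1 reduces the size of these changes. By fragments the level exceeded FAK KO 14.9-fold in KMF (95% exact interval 10.8 to 21.2), 5.12-fold in FAK-WT (3.62 to 7.41) and 3.92-fold in FAK-R454 cells (2.7 to 5.81), counting error only. On the log2(FPKM + 0.1) scale KMF cells exceeded FAK KO cells 11.3-fold (log2 fold change 3.49, standard error 0.23, adjusted p = 7.53e-06). FAK-WT cells exceeded FAK KO cells 4.05-fold (log2 fold change 2.02, standard error 0.26, adjusted p = 9.21e-04) and remained below KMF cells (log2 fold change -1.48, adjusted p = 0.0027). FAK-R454 cells exceeded FAK KO cells 3.19-fold (log2 fold change 1.67, standard error 0.29, adjusted p = 0.00661). With a pseudocount of 1 both fell under the fold threshold (0.93 for FAK-WT and 0.71 for FAK-R454), and the FAK-R454 call was also lost without either FAK-R454 sample (adjusted p = 0.0711 and 0.0952). Directly, FAK-WT and FAK-R454 cells differed by 0.34 (95% interval -0.20 to 0.89, adjusted p = 0.373). In β-catenin ΔGSK cells only 3 fragments of Cxcl5 were counted over 3 samples, against 39 in FAK KO cells. The ratio of these counts per fragment sequenced was 0.0778 (95% exact interval 0.0154 to 0.245, counting error only). Both lines were below 1 FPKM, so Cxcl5 was not tested between them.

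Cxcl15, the lung-associated ELR chemokine lungkine (ENSMUSG00000029375, 90794534 to 90803067), lies between them. It was 1.25, 1.70 and 1.61 FPKM for KMF, 4.12, 2.79 and 2.94 for FAK KO, 3.28, 2.96 and 2.33 for FAK-WT, 3.74 and 3.62 for FAK-R454 and 1.19, 1.11 and 0.959 for β-catenin ΔGSK. KMF and β-catenin ΔGSK cells were the low lines. Both were called lower than FAK KO, with a log2 fold change against it of -1.50 for β-catenin ΔGSK (standard error 0.17, adjusted p = 1.09e-04) and -1.05 for KMF (standard error 0.18, adjusted p = 0.00137). The KMF value lies at the fold threshold and was not called with a pseudocount of 1 (-0.76), with chromosomes centred (-0.87), or without KMF sample 1 (-0.93) or FAK KO sample 1 (-0.88). So Cxcl5 and Cxcl15, 2 genes of 1 cluster, went opposite ways between KMF and FAK KO cells. Cxcl2 had 19 fragments and Cxcl3 15 over all samples, none of them in β-catenin ΔGSK cells. Cxcr2, the receptor of these ligands, had 7 fragments in all and Cxcr1 had 2.

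Cxcl12 (ENSMUSG00000061353, chromosome 6, 117168535 to 117181367), a ligand known for holding and guiding cells that carry Cxcr4, was expressed in every line. It was 22.1, 19.2 and 30.9 FPKM for KMF, 11.1, 8.51 and 7.82 for FAK KO, 4.89, 5.20 and 7.94 for FAK-WT, 15.7 and 15.5 for FAK-R454 and 3.49, 3.61 and 1.46 for β-catenin ΔGSK. From high to low the order was KMF, FAK-R454, FAK KO, FAK-WT and then β-catenin ΔGSK, and among neighbours in this order only FAK KO and FAK-WT overlapped. KMF exceeded FAK KO 2.59-fold (log2 fold change 1.37, standard error 0.18, adjusted p = 3.87e-04). FAK-WT was 3.97-fold below KMF (log2 fold change -1.99, standard error 0.22, adjusted p = 5.67e-04). Against FAK KO, FAK-WT was lower by 0.62 on the log2 scale (adjusted p = 0.0337) and FAK-R454 higher with 0.78 (adjusted p = 0.00684), both under the fold threshold. The difference between the re-expressed forms was called, with FAK-WT 2.64-fold below FAK-R454 (log2 fold change -1.40, standard error 0.20, adjusted p = 0.0185). The call was lost without FAK-WT sample 2 (adjusted p = 0.0717) and without FAK-R454 sample 1 or 2 (adjusted p = 0.184 and 0.204). β-catenin ΔGSK cells were 3.33-fold below FAK KO (log2 fold change -1.73, standard error 0.31, adjusted p = 0.0014).

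Cxcr4 (ENSMUSG00000045382, chromosome 1, 128588199 to 128592293), the signalling receptor of Cxcl12, followed a different order. It was 0.839, 1.41 and 0.942 FPKM for KMF, 1.49, 1.68 and 1.13 for FAK KO, 5.00, 4.60 and 4.90 for FAK-WT and 4.75 and 4.60 for FAK-R454 cells. In β-catenin ΔGSK cells it was 0.0390, 0.0436 and 0.0377, which is 2 fragments in each sample. FAK-WT and FAK-R454 stood above all others, KMF and FAK KO overlapped, and β-catenin ΔGSK was nearly without the transcript. The rise over FAK KO was 3.26-fold in FAK-WT (log2 fold change 1.70, standard error 0.15, adjusted p = 1.45e-04) and 3.15-fold in FAK-R454 cells (log2 fold change 1.66, standard error 0.17, adjusted p = 6.28e-04). Between the re-expressed forms the difference was 0.05 (95% interval -0.14 to 0.23, adjusted p = 0.714). Against KMF, FAK-WT was higher 4.33-fold (log2 fold change 2.11, adjusted p = 1.54e-04). β-catenin ΔGSK cells were lower than FAK KO (log2 fold change -3.43, standard error 0.25, adjusted p = 7.59e-06), whose size the added 0.1 reduces. Cxcr4 was tested there only through FAK KO, so it could only be lower. By fragments, 6 against 217, the level was 35.7-fold lower (95% exact interval 16.2 to 98.5, counting error only). Ackr3, the scavenging receptor of Cxcl12, stayed below 1 FPKM in the mean of every line, with at most 0.542.

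**Figure D4:**
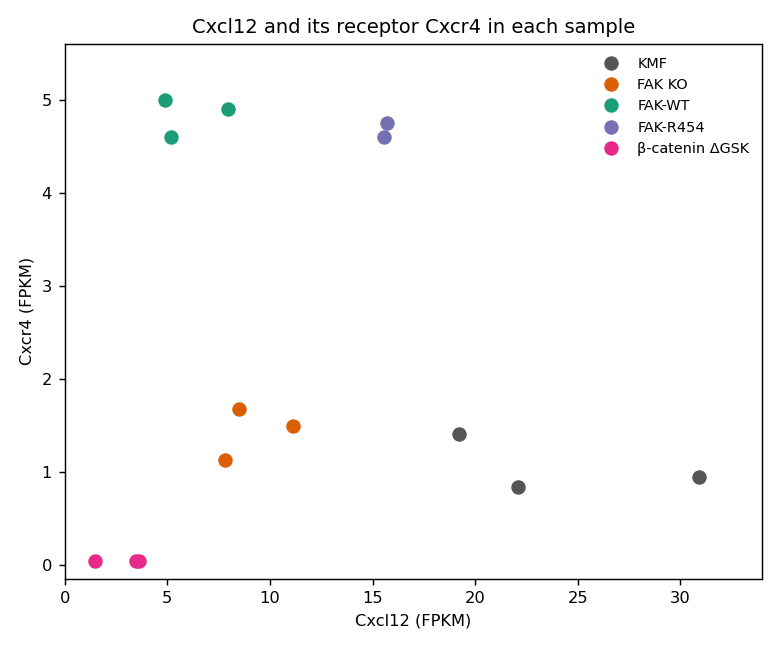
Cxcl12 (horizontal) against Cxcr4 (vertical), both in FPKM, with 1 point per sample colored by line. KMF samples lie at high Cxcl12 and low Cxcr4, FAK-WT samples at low Cxcl12 and high Cxcr4, FAK-R454 samples are high in Cxcr4 with Cxcl12 near 15.6, and β-catenin ΔGSK samples are low in both.

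Cx3cl1, Cxcl16 and Cxcl17 were expressed in all lines. Cx3cl1 (ENSMUSG00000031778, chromosome 8, 94772009 to 94782423) and Cxcl16 are made as membrane proteins whose chemokine domain can be shed. Cx3cl1 was 38.6, 41.8 and 33.0 FPKM for KMF, 26.9, 30.5 and 28.5 for FAK KO, 48.3, 46.7 and 35.9 for FAK-WT, 36.9 and 38.5 for FAK-R454 and 15.4, 18.4 and 16.9 for β-catenin ΔGSK. FAK KO was below KMF, FAK-WT and FAK-R454 without overlap, and β-catenin ΔGSK was the lowest. None of its differences from FAK KO reached the fold threshold. Against FAK KO the log2 fold change was 0.59 for FAK-WT (adjusted p = 0.00477), 0.40 for FAK-R454 (adjusted p = 0.00862), 0.39 for KMF (adjusted p = 0.00803) and -0.76 for β-catenin ΔGSK (adjusted p = 9.69e-05). Cx3cr1, its receptor, had 4 fragments in all samples together.

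Cxcl17 (ENSMUSG00000060188, chromosome 7, 25400053 to 25412886), a mucosal chemokine, was highest in FAK KO cells. It was 17.4, 17.8 and 17.2 FPKM for KMF, 26.9, 35.8 and 32.0 for FAK KO, 22.6, 22.1 and 14.3 for FAK-WT, 13.9 and 11.5 for FAK-R454 and 6.25, 8.33 and 7.99 for β-catenin ΔGSK. No sample of another line reached the FAK KO samples. It was lower by 1.31 on the log2 scale in FAK-R454 (standard error 0.13, adjusted p = 5.09e-04) and by 2.05 with β-catenin ΔGSK (standard error 0.13, adjusted p = 3.99e-06), and both were called. It was lower by 0.70 in FAK-WT (adjusted p = 0.0151) and by 0.84 in KMF cells (adjusted p = 2.05e-04), which were not. The FAK-WT and FAK-R454 levels differed by 0.61 (95% interval 0.10 to 1.12, adjusted p = 0.135).

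Cxcl16 (ENSMUSG00000018920, chromosome 11, 70453983 to 70459984) was 9.13, 9.41 and 10.2 FPKM for KMF, 10.4, 9.93 and 10.6 for FAK KO, 11.3, 11.7 and 9.25 for FAK-WT, 10.6 and 11.1 for FAK-R454 and 4.18, 5.63 and 5.97 for β-catenin ΔGSK. The β-catenin ΔGSK samples lay below all the others, with a log2 fold change of -0.98 against FAK KO (standard error 0.13, adjusted p = 2.65e-04), just short of the fold threshold. The FAK-R454 samples lay narrowly above those of FAK KO and above those of KMF. Against FAK KO their log2 fold change was 0.07 (adjusted p = 0.519). Cxcl16 shares 552 bases of exon, 18.3% of its exon length in GENCODE M21, with Zmynd15 on the opposite strand, and the library kit does not record strand. Zmynd15 moved with it, at 21.9 to 23.3 FPKM in FAK KO and 9.07 to 11.1 in β-catenin ΔGSK cells (log2 fold change -1.13, adjusted p = 1.35e-05). Its part in the Cxcl16 value was not tested. Cxcr6, the receptor of Cxcl16, had 27 fragments in FAK-WT cells, 8 in FAK KO and 5 in KMF, and never exceeded a mean of 0.165 FPKM.

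Among the CC ligands of the MCP group, Ccl2 and Ccl7 were expressed. They lead a run of 6 members on chromosome 11 (82035571 to 82305690) whose others, Ccl11, Ccl12, Ccl8 and Ccl1, had from 0 to 14 fragments each over all samples. Ccl2 (ENSMUSG00000035385, 82035571 to 82037453), the main monocyte attractant of the group, was 2.10, 2.42 and 2.28 FPKM for KMF, 3.42, 3.25 and 2.61 for FAK KO, 3.89, 3.33 and 5.93 for FAK-WT, 4.44 and 3.80 for FAK-R454 and 0.225, 0.827 and 0.527 for β-catenin ΔGSK. The β-catenin ΔGSK samples were the lowest and did not overlap any other line. Their level was 5.53-fold lower than in FAK KO (log2 fold change -2.47, standard error 0.34, adjusted p = 3.19e-04). The FAK-WT and FAK-R454 values were not called against FAK KO (log2 fold change 0.45 and 0.41, adjusted p = 0.102 and 0.0777). FAK-WT sample 3, the highest, also had the highest Ccl7, Cd68 (12.3 FPKM) and Mif (890 FPKM) of all 14 samples. Without that sample the number of members called in FAK-WT against FAK KO was still 3.

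Ccl7 (ENSMUSG00000035373, 82045712 to 82047525), whose gene follows Ccl2, showed the same order at a lower level. It was 0.258, 0.447 and 0.389 FPKM for KMF, 0.995, 0.622 and 0.491 for FAK KO, 0.628, 0.977 and 1.83 for FAK-WT, 0.854 and 1.18 for FAK-R454 and 0.0880, 0.0983 and 0.0424 for β-catenin ΔGSK. FAK KO overlapped both re-expressed lines and β-catenin ΔGSK lay below all. Ccl7 was tested between FAK-WT and KMF only through FAK-WT, so it could only be higher. It was called higher in FAK-WT than in KMF cells (log2 fold change 1.33, standard error 0.37, adjusted p = 0.024), a call lost with a pseudocount of 1 (0.62) and without FAK-WT sample 2 (adjusted p = 0.0614), KMF sample 1 (0.0785) or KMF sample 3 (0.0517). In β-catenin ΔGSK cells 5 fragments were counted against 48 in FAK KO, a ratio of 0.105 (95% exact interval 0.0327 to 0.263, counting error only).

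Ccl25 and Ccl27a, ligands of Ccr9 and Ccr10, are known from the gut and thymus and from skin, and no comparison of either was called. Ccl25 (ENSMUSG00000023235, chromosome 8, 4325210 to 4360020) was 6.30, 5.17 and 6.85 FPKM for KMF, 6.68, 6.99 and 6.25 for FAK KO, 6.17, 5.68 and 5.11 for FAK-WT, 6.10 and 5.49 for FAK-R454 and 5.40, 5.18 and 5.94 for β-catenin ΔGSK. The FAK KO samples lay above those of β-catenin ΔGSK, FAK-WT and FAK-R454, and all other pairs of lines overlapped. Its log2 fold change was largest in size between β-catenin ΔGSK and FAK KO cells, at -0.27 (adjusted p = 0.031). In GENCODE M21, Ccl25 shares 204 bases of exon with Elavl1 on the opposite strand, which was 9.57 to 12.8 FPKM over all samples. That is 2.74% of its 7445 exon bases in M21. The deposited gene length of Ccl25 is 1109 bases, and the deposited spans of these genes do not overlap. The part of Elavl1 in the Ccl25 values was not tested. Ccl27a (ENSMUSG00000073888, chromosome 4, 41769467 to 41774247) was 23.5, 25.3 and 26.7 FPKM for KMF, 23.1, 28.0 and 26.4 for FAK KO, 22.0, 23.4 and 24.5 for FAK-WT, 24.1 and 21.5 for FAK-R454 and 16.7, 16.4 and 19.0 for β-catenin ΔGSK. The β-catenin ΔGSK samples lay below all the others and the other 4 lines overlapped (log2 fold change -0.57 against FAK KO, standard error 0.09, adjusted p = 8.95e-04). Ccl27a shares 8 bases with Il11ra1 on the opposite strand, which was not lower in β-catenin ΔGSK cells (log2 fold change 0.16, adjusted p = 0.153). Ccl27b, a near relative of Ccl27a, was listed at 0 in every sample, and how fragments shared by such copies were assigned is not given in the sources used here, so the split between them is uncertain.

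Of the 16 receptors, Cxcr4, Ccr7 and Ccr10 were expressed. Ccr7 (ENSMUSG00000037944, chromosome 11, 99144196 to 99155077), which guides cells toward Ccl19 and Ccl21, was 0.365, 0.706 and 0.530 FPKM for KMF, 1.02, 1.14 and 0.975 for FAK KO, 3.58, 3.01 and 2.70 for FAK-WT, 2.02 and 1.17 for FAK-R454 and 0.410, 0.856 and 0.670 for β-catenin ΔGSK. FAK-WT stood above every other line, and FAK-R454 lay between FAK-WT and FAK KO. FAK-WT exceeded FAK KO 2.77-fold (log2 fold change 1.47, standard error 0.15, adjusted p = 2.67e-04) and KMF 5.14-fold (log2 fold change 2.36, standard error 0.22, adjusted p = 2.41e-04). Against KMF, Ccr7 was tested only through FAK-WT, so it could only be higher. With a pseudocount of 1 the value against FAK KO was 0.996, just under the fold threshold. FAK-R454 was not called against FAK KO (log2 fold change 0.52, adjusted p = 0.155). Between FAK-WT and FAK-R454 the difference was 0.96 (95% interval 0.37 to 1.54, adjusted p = 0.0678) and was not called, but it was called with the sample number as a block and without FAK-WT sample 3. The ligands Ccl19, Ccl21a and Ccl21b had no fragment in any sample.

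Ccr10 (ENSMUSG00000044052, chromosome 11, 101172997 to 101175443), the receptor of Ccl27a and Ccl28, was 2.23, 2.70 and 3.00 FPKM for KMF, 4.79, 6.33 and 5.53 for FAK KO, 5.46, 6.15 and 5.48 for FAK-WT, 5.65 and 5.29 for FAK-R454 and 2.23, 2.67 and 3.19 for β-catenin ΔGSK. FAK KO, FAK-WT and FAK-R454 overlapped one another and lay above KMF and β-catenin ΔGSK. The log2 fold change was -1.04 in KMF (standard error 0.14, adjusted p = 3.81e-04) and -1.02 in β-catenin ΔGSK against FAK KO cells (standard error 0.15, adjusted p = 5.16e-04), and 1.09 in FAK-WT against KMF cells (standard error 0.12, adjusted p = 4.81e-04). All 3 lie at the fold threshold and were under it with a pseudocount of 1 (-0.84, -0.83 and 0.88) and in some fits without 1 sample. KMF against FAK KO was also under it with each chromosome centred on its median (-0.95), and β-catenin ΔGSK against FAK KO with median-of-ratios scaling (-0.95). The fits without 1 sample were KMF against FAK KO without KMF sample 1 (-0.93) or FAK KO sample 2 (-0.94), β-catenin ΔGSK against FAK KO without β-catenin ΔGSK sample 1 (-0.90) or FAK KO sample 2 (-0.92), and FAK-WT against KMF without KMF sample 1 (0.97). Ccr10 lies wholly inside Cntnap1, a gene on the opposite strand, and shares no exon base with it in GENCODE M21. Cntnap1 showed the same pattern, with means of 5.35 FPKM for KMF, 10.5 for FAK KO, 11.8 for FAK-WT, 12.2 for FAK-R454 and 4.66 for β-catenin ΔGSK. The libraries do not record strand, so unspliced Cntnap1 RNA and Ccr10 cannot be told apart, and its part in the Ccr10 values was not tested.

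**Figure D5:**
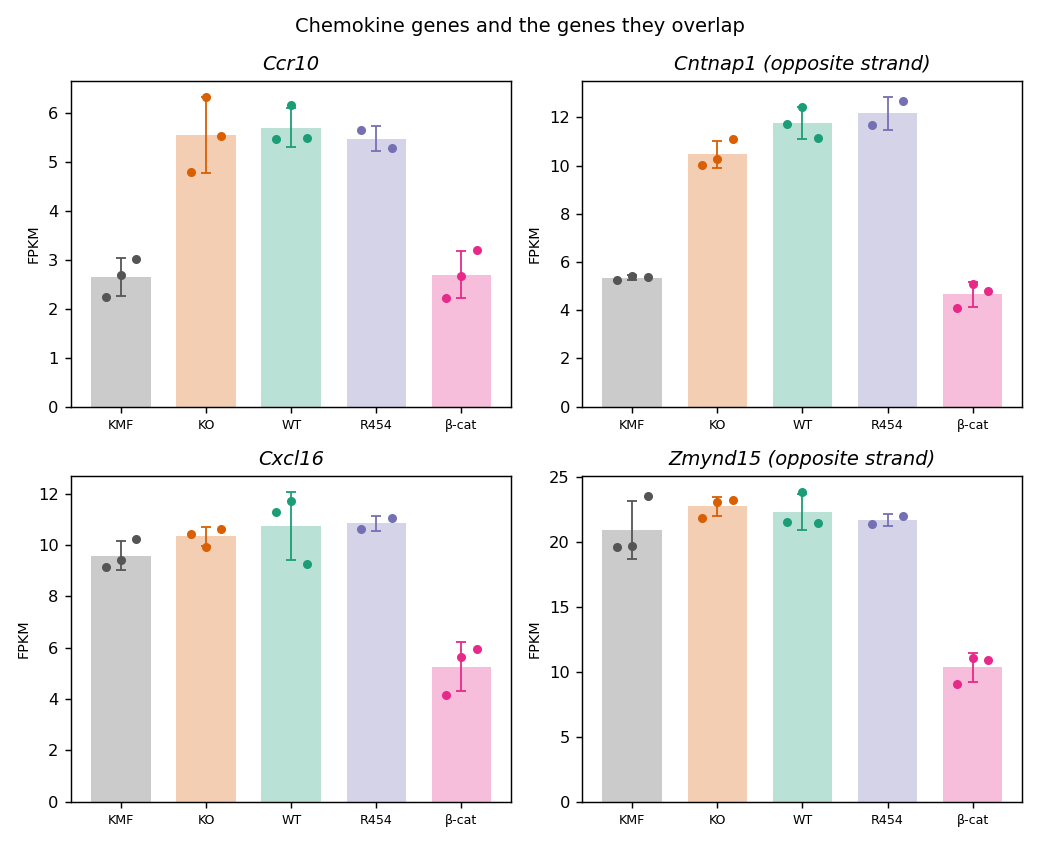
FPKM (vertical axes, from 0) of Ccr10 and Cxcl16 (left) and of the genes on the opposite strand that they overlap, Cntnap1 and Zmynd15 (right), by line. Points are samples, bars means and whiskers SD. Each pair has the same low lines, KMF and β-catenin ΔGSK for Ccr10 with Cntnap1 and β-catenin ΔGSK for Cxcl16 with Zmynd15.

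Below 1 FPKM, counts of fragments showed further differences, which are given without a test. Cxcl13 had 62 fragments in FAK-WT cells (16, 30 and 16 by sample), 26 in FAK-R454 (11 and 15), 10 in FAK KO (3, 4 and 3), 7 in KMF (4, 1 and 2) and 1 in β-catenin ΔGSK cells. Each sample of both re-expressed lines was above every sample of the other 3. Per fragment sequenced FAK-WT exceeded FAK KO 5.93-fold (95% exact interval 3.02 to 13.0) and FAK-R454 exceeded it 3.68-fold (1.72 to 8.56), counting error only. Ccl28 had 48 fragments in β-catenin ΔGSK and 177 in FAK KO cells, 3.64-fold fewer per fragment sequenced (95% exact interval 2.64 to 5.12). The interferon-inducible ligand Cxcl10 had 122 fragments over all samples and Cxcl9 had 1, so this group was not expressed in any line. Ccl5 had 8 fragments for KMF (3, 1 and 4), 24 for FAK KO (14, 4 and 6), 23 for FAK-WT (12, 9 and 2), 12 for FAK-R454 and 11 for β-catenin ΔGSK. Per fragment sequenced KMF was at 0.304 of FAK KO (95% exact interval 0.118 to 0.70, counting error only). FAK KO sample 1 held 14 of the 24 fragments of its line, so this ratio leans on that sample.

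Other genes of the chemokine system were taken from a list of 14, of which 3 reached 1 FPKM in any line. Pf4, platelet factor 4, a CXC chemokine named outside the symbol rule, exceeded its FAK KO level with FAK-WT (log2 fold change 1.60, adjusted p = 4.37e-04), FAK-R454 (1.02, adjusted p = 0.0127) and KMF (1.11, adjusted p = 0.00195), and lay below it with β-catenin ΔGSK (-1.16, adjusted p = 0.00871). Its values were 1.51 to 2.62 FPKM in FAK KO, 5.76 to 6.61 in FAK-WT and 0.522 to 1.20 in β-catenin ΔGSK cells. Cmklr1, the receptor of chemerin, was 2.17 to 2.60 FPKM for FAK KO and 0 to 0.0354 for β-catenin ΔGSK (log2 fold change -4.41, adjusted p = 1.15e-06). In β-catenin ΔGSK cells the means of Pf4 and Cmklr1 were 0.888 and 0.0159 FPKM. Both passed the filter there only through FAK KO and could only be lower. Mif, a cytokine that can bind Cxcr4, was 250 to 890 FPKM over all samples. It went the other way from Pf4 and Cmklr1, at 521 to 722 FPKM in β-catenin ΔGSK and 250 to 339 in FAK KO cells, and was not called. Ccrl2, also of this list and below 1 FPKM, had 127 fragments in β-catenin ΔGSK and 10 in FAK KO cells.

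Of 10 tested genes of receptor signalling and desensitisation, limma called none in FAK-WT or FAK-R454 against FAK KO cells, nor did limma-voom, while 8 and 5 were under an unadjusted p of 0.05. In β-catenin ΔGSK cells 2 were lower, Grk5, a kinase that desensitises receptors (log2 fold change -1.42, adjusted p = 4.52e-07), and Rgs2, which dampens G protein signalling (-1.11, adjusted p = 3.35e-04). In KMF cells Gnai1, an inhibitory G protein subunit, was lower than in FAK KO (-1.99, adjusted p = 2.49e-07) and than in FAK-WT cells (1.01 for FAK-WT against KMF, adjusted p = 3.52e-04). The median of the list was -0.15 in β-catenin ΔGSK cells, beside -0.09 for all genes tested. Of 17 genes for NF-kB factors and their feedback, limma and limma-voom called none higher in any of the 4 comparisons with FAK KO, while at an unadjusted p under 0.05 there were 8 higher and 3 lower with FAK-WT, 7 and 2 with FAK-R454, 1 and 7 with β-catenin ΔGSK, and 5 and 4 with KMF. Ikbkg, the regulatory subunit of the IkB kinase, was lower in β-catenin ΔGSK cells (log2 fold change -1.68, adjusted p = 1.48e-07), where all 17 were tested with a median of -0.15. The feedback inhibitor Nfkbia was 37.4 to 42.2 FPKM in FAK KO, 51.0 to 55.6 in FAK-WT and 32.2 to 38.4 in β-catenin ΔGSK cells. Of 5 tested co-secreted cytokines 2 were lower in β-catenin ΔGSK cells, Spp1, osteopontin (-4.18, adjusted p = 1.88e-08), and Il33, an alarmin (-1.11, adjusted p = 0.00154). The median of these 5 was -0.335. Il33 was also lower in KMF than in FAK KO (-1.94) and higher in FAK-WT cells against FAK-R454 (1.15) and KMF (2.47), and Lif was higher and Rel, an NF-kB subunit, lower in FAK-WT than in KMF cells (1.14 and -1.04). Rel had a mean of 0.806 FPKM in FAK-WT cells, so it passed the filter only through KMF and could only be lower. Irf7 was the only interferon regulator called, higher in FAK-WT (1.13, adjusted p = 0.0242) and in KMF (1.24, adjusted p = 0.004) than in FAK KO cells. The FAK KO mean of Irf7 was 0.979 FPKM, so it passed only through FAK-WT or KMF and could only be higher. None of 14 tested cytokine receptors was called in FAK-WT, FAK-R454 or β-catenin ΔGSK against FAK KO cells, and none of 15 in KMF, by limma. At an unadjusted p under 0.05 there were 3, 4, 8 and 10 in that order, and limma-voom called 0, 0, 0 and 1.

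The lines were checked for RNA of leukocytes, which make many chemokines. Of 16 leukocyte genes 2 were above 1 FPKM in every line, Cd68 and Cd14, and Ptprc, the common leukocyte antigen, had 1 fragment in 14 samples. Cd3e and Cd3g had none. The summed level of the list was 8.06 to 8.56 FPKM for KMF, 7.12 to 7.32 for FAK KO, 12.0 to 16.9 for FAK-WT, 8.94 to 9.27 for FAK-R454 and 4.40 to 5.30 for β-catenin ΔGSK. Cd68, a lysosomal protein abundant in macrophages, was called higher in FAK-WT (log2 fold change 1.44, adjusted p = 0.00157) and lower in β-catenin ΔGSK than in FAK KO cells (-1.16, adjusted p = 0.00144). In FAK-WT against KMF cells Cd68 (1.41, adjusted p = 0.00339) and the mesenchymal Dcn (1.77, adjusted p = 6.85e-05) were higher and the epithelial Lgals7 lower (-1.18, adjusted p = 4.03e-04), and their part in the chemokine values was not tested. Of 6 mesenchymal genes Dcn and Pdgfra were above 1 FPKM in some or all lines, and Thy1, Lum and Postn had at most 5 fragments each. The summed mesenchymal level was 39.3 to 47.3 FPKM for KMF, 89.1 to 125 for FAK KO, 115.5 to 134 for FAK-WT, 110.5 to 123 for FAK-R454 and 30.55 to 45.0 for β-catenin ΔGSK. Of 6 endothelial genes Tek and Pecam1 passed 1 FPKM in at least 1 line, Kdr had 1 fragment and Cldn5 none, and the summed level was 29.6 to 30.0 FPKM for KMF, 17.2 to 19.3 for FAK KO, FAK-WT and FAK-R454, and 6.59 to 7.46 for β-catenin ΔGSK. Dcn, Pdgfra, Tek and Pecam1 were all called lower in β-catenin ΔGSK than in FAK KO cells (log2 fold change -1.36, -1.77, -1.35 and -1.58), beside the lower chemokines of that line. Their part in those values was not tested. Pdgfra and Pecam1 had means of 0.815 and 0.286 FPKM in β-catenin ΔGSK cells. Both passed the filter only through FAK KO and could only be lower. Pdgfra was also called higher than in FAK KO with FAK-WT, FAK-R454 and KMF (log2 fold change 1.72, 1.53 and 1.55), and Dcn lower with KMF (-1.57). Of 10 genes of ovarian surface epithelium and mesothelium 7 were above 1 FPKM in every line, among them Krt8, Krt18, Wt1 and Msln, while Epcam, Krt7 and Cdh1 were below it. Of these, Wt1 (log2 fold change 1.21) and Upk3b (1.12) were called higher and Lgals7 (-1.06) lower in β-catenin ΔGSK than in FAK KO cells. Upk3b was called higher (2.96) and Lgals7 lower (-1.27) in FAK-R454 than in FAK KO cells, and Upk3b was lower in FAK-WT cells against FAK-R454 (-2.09). The part of these markers in the chemokine values was not tested.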

How the data were processed

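Poly(A) RNA of 14 tumorsphere samples was sequenced. The authors deposited 1 table of 35275 genes in FPKM, with gene lengths. The study's methods name TopHat2 as aligner, and the submitters' processing notes name CASAVA 1.8, STAR 2.5, DESeq2 and mm10, so which aligner made the table is not settled. Gene IDs of all 52 members matched GENCODE M21, 34 with the same start and end. The deposited gene length equalled the exon length in M21 for 15 of them, so exon shares from M21 may not describe the counted gene.

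From the deposited FPKM, whole fragments were recovered (100% of values within 0.01 of a whole number), 25390558 to 35289859 per library. Intervals and limits from fragments (95%, floor of 3) cover counting error only. Lines were compared with limma 3.58.1 (R 4.3.3; trended empirical Bayes) on log2(FPKM + 0.1), which understates changes of low genes, using the samples of 2 lines and genes with a mean above 1 FPKM in at least 1. The pipeline was tested on simulated data. Alternatives were a pseudocount of 1, no filter, a filter at 5 FPKM, median-of-ratios scaling, 1 fit of all lines, the sample number as a block, limma-voom on fragments, fold thresholds of 0 and 0.5, chromosomes centred, and leaving out each sample. Members above 1 FPKM in any line are named with every sample, as is every called member, those nearest 1 FPKM, and up to 3 called genes of each other list and comparison. Values of some genes are not reported here. Members and lists were chosen with earlier results of these data known.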

Additional observations from a re-analysis of the deposited data

Results flagged for a closer look

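Cxcl12 differed between the forms of FAK put back into FAK KO cells. It was lower in FAK-WT and higher in FAK-R454 cells than in FAK KO, both under the fold threshold, and the direct log2 difference, FAK-WT minus FAK-R454, was -1.40.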

How the results depend on the processing

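The number of expressed members held within 1.5 times in every line for thresholds of 0.5 FPKM, above 1 FPKM in every sample and 10 fragments in every sample. A mean above 5 FPKM left 7 in KMF, 8 in FAK-WT and 8 in FAK-R454 cells. Median-of-ratios scaling, 1 fit of all lines and limma-voom on fragments kept every count of called members within 1.5 times, although median-of-ratios scaling lost Ccr10 in β-catenin ΔGSK against FAK KO, and no called member changed direction in any alternative. A pseudocount of 1 left 1 called member in FAK-WT against FAK KO (3 as reported), without Cxcl5 and Ccr7, and 2 in KMF against FAK KO (4 as reported), without Cxcl15 and Ccr10. A filter at 5 FPKM, which tests fewer genes, left 0 for FAK-WT, 1 for FAK-R454 and 4 for β-catenin ΔGSK against FAK KO, 2 for KMF against FAK KO and 2 in FAK-WT against KMF. With no filter β-catenin ΔGSK against FAK KO gave 11, Cxcl5, Ccl7 and Ccl28 among those added. That setting also dropped the need for a mean above 1 FPKM in the higher line, and these added genes were below 1 FPKM in both lines. Without a fold threshold the counts against FAK KO were 6 for FAK-WT, 5 for FAK-R454, 12 for β-catenin ΔGSK and 9 for KMF, and with a threshold of 0.5 they were 6 for FAK-WT and 11 for β-catenin ΔGSK. Shares of all genes called with no filter or at these fold thresholds are not given, so these counts cannot be set beside a background. With chromosomes centred KMF against FAK KO gave 2, without Cxcl15 and Ccr10. Leaving out 1 sample at a time gave 2 to 5 called members for KMF against FAK KO and 0 to 2 for FAK-WT against FAK-R454. In the latter, Ccr7 was gained without FAK-WT sample 3, and Cxcl12 was lost without FAK-WT sample 2 or either FAK-R454 sample, which leaves that line with 1 sample assumed to vary like the others.

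Pairing by sample number was taken to hold where every same-numbered pair correlated over 0.1 in its deviations from the group means, across genes, and no comparison met this. β-catenin ΔGSK against FAK KO came nearest (0.445, 0.28 and 0.0759), and there the block gave 1447 called genes, against 1444 without it, with all 1444 shared. The other correlations lay between -0.245 and 0.145. In no comparison with 3 pairs did every sample correlate best with its own number. With the number as a replicate block FAK-WT against FAK-R454 gave 2 called members, Ccr7 besides Cxcl12, and the other counts were within 1.5 times. With about 10 fragments a line or fewer, counting intervals were wide (Cxcl13 for KMF against FAK KO, 7 and 10 fragments, a ratio of 0.639 with a 95% exact interval of 0.206 to 1.86), so only large differences were detectable there.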
